A study of Mus musculus with 11 samples.

Results

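The genes of the mitochondrial ribosomal proteins were examined in BV2 cells treated with amino-terminal fragments of apolipoprotein E. They were taken by symbol, as Mrpl or Mrps followed by a digit and without the suffix of a pseudogene, which gave 77 of the 36529 genes in the count tables. By symbol, 48 belong to the large subunit (Mrpl) and 29 to the small subunit (Mrps). BV2 is a transformed microglial line of the mouse, and all 11 samples are of this line. In the first experiment 3 samples received nApoE4 1-151, the fragment of residues 1 to 151 of ApoE4, at 25 µg/ml for 5 h, and 3 untreated samples (ControlA) were its controls. In the second experiment 2 samples received nApoE3 1-151 at the same dose and time, and 3 untreated samples (ControlB) were its controls. The fragments differ by a single amino acid, and because each was tested in its own experiment, fragment and experiment cannot be told apart. The labels name a PBS vehicle for the untreated cells, whereas the methods name conditioned media, and it is unknown which one these controls were given.

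Mitochondria keep a small genome whose messages are read by ribosomes of their own. The RNAs of these ribosomes are made in the organelle, while every protein of the large and the small subunit is encoded in the nucleus, translated in the cytosol and imported. Part of the proteins descend from the bacterial ribosome and part were added in mitochondria. The only messages these ribosomes read in mammals encode membrane subunits of the respiratory chain and of ATP synthase, so that their supply bears on oxidative phosphorylation, a process that microglia reduce when they turn to an inflammatory state.

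Reads counted on genes numbered 39732710 to 69768666 per sample, so that a floor of 3 counts corresponded to 0.043 to 0.0755 CPM, the counts of a gene scaled to the size of its library. Such floors and all counting intervals cover counting error only. Among libraries of a group, ControlA replicate 2 differed most from replicates 3 and 1 (chi-square per degree of freedom of 47.86 and 25.77). ApoE4 replicate 2 followed, at 11.93 and 12.05 against replicates 1 and 3. All other pairs of a group had 3.15 to 7.848. Of 12 microglial and macrophage genes, 8 or 9 had a mean above 1 CPM in each group and together they reached 2312 to 3845 CPM, but P2ry12, a marker of resting microglia, was at or under 3 counts in every sample. Aif1 (0.03 to 0.09 CPM) and Cx3cr1 (0.12 to 0.58 CPM) had means under 1 CPM in every group. Trem2 had means of 21.95 CPM in ControlA, 3.05 with nApoE4 1-151, 0.70 in ControlB and 0.51 with nApoE3 1-151. The endothelial list (Pecam1, Cdh5, Cldn5, Kdr) summed to 152.7 to 180.6 CPM in ControlA and to 64.01 to 73.41 CPM with nApoE4 1-151, to 62.43 to 64.57 CPM in ControlB and to 41.58 to 46.45 CPM with nApoE3 1-151. Kdr made up nearly all of these sums, with means of 169.2, 67.22, 62.07 and 42.42 CPM in the same order. Cldn5, the defining tight junction gene of the list, was at or under 3 counts throughout, and 1 or 2 of the 4 genes were above 1 CPM. The part of these genes in the results was not tested. Nothing in the labels states that replicates came from separate cultures, so that the p-values measure only the spread between these samples, which may be technical. In bulk RNA, fewer cells and less RNA per cell cannot be told apart.

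Changes in the mitoribosomal genes were small with either fragment, and more of them fell than rose. With nApoE4 1-151, 17 of 74 tested members were lower (23%) and 6 were higher (8.11%) than in ControlA at an adjusted p under 0.05 (edgeR's quasi-likelihood test, adjusted over all genes tested). Over all 14240 genes tested, 28.6% were lower and 28.6% were higher, or 57.2% in either direction against 31.1% of the members. With nApoE3 1-151, 29 of 75 tested members were lower (38.7%) and 16 were higher (21.3%), beside 34.6% lower and 33.1% higher among all 14817 genes tested. In either direction this was 60% of the members and 67.7% of all genes. The median log2 fold change of the members was -0.07 with nApoE4 1-151 and -0.04 with nApoE3 1-151, where that of all genes tested was 0.00 in both. The median size of the change, without its sign, was 0.15 and 0.16 on the log2 scale, where that of all genes tested was 0.36 and 0.34. A change of more than 2-fold at the same adjusted p was met by 0 members with nApoE4 1-151 and by 2 with nApoE3 1-151, Mrpl52 and Mrpl40, where 17.7% and 16.2% of all genes met it. Of these, Mrpl40 rests on 1 library and is described with the members near the floor.

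Both counts moved with the scaling and with single ControlA libraries. When libraries were scaled by their totals alone, 30 members were lower and 4 higher with nApoE4 1-151, and 49 were lower and 8 higher with nApoE3 1-151. The median of all genes shifted to -0.09 and -0.13. Of all 14240 genes, 4993 were then lower and 3316 higher with nApoE4 1-151. Of all 14817 genes, 6783 were lower and 3595 higher with nApoE3 1-151. Without ControlA replicate 2 the nApoE4 1-151 counts were 16 lower and 13 higher, with a median of 0.02. Of all 14561 genes, 4423 were lower and 4404 higher in that fit. Without ControlA replicate 3 the members' counts were 28 lower and 4 higher, with a median of -0.13. Of all 14511 genes, 4043 were lower and 4033 higher there.

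**Figure D1:**
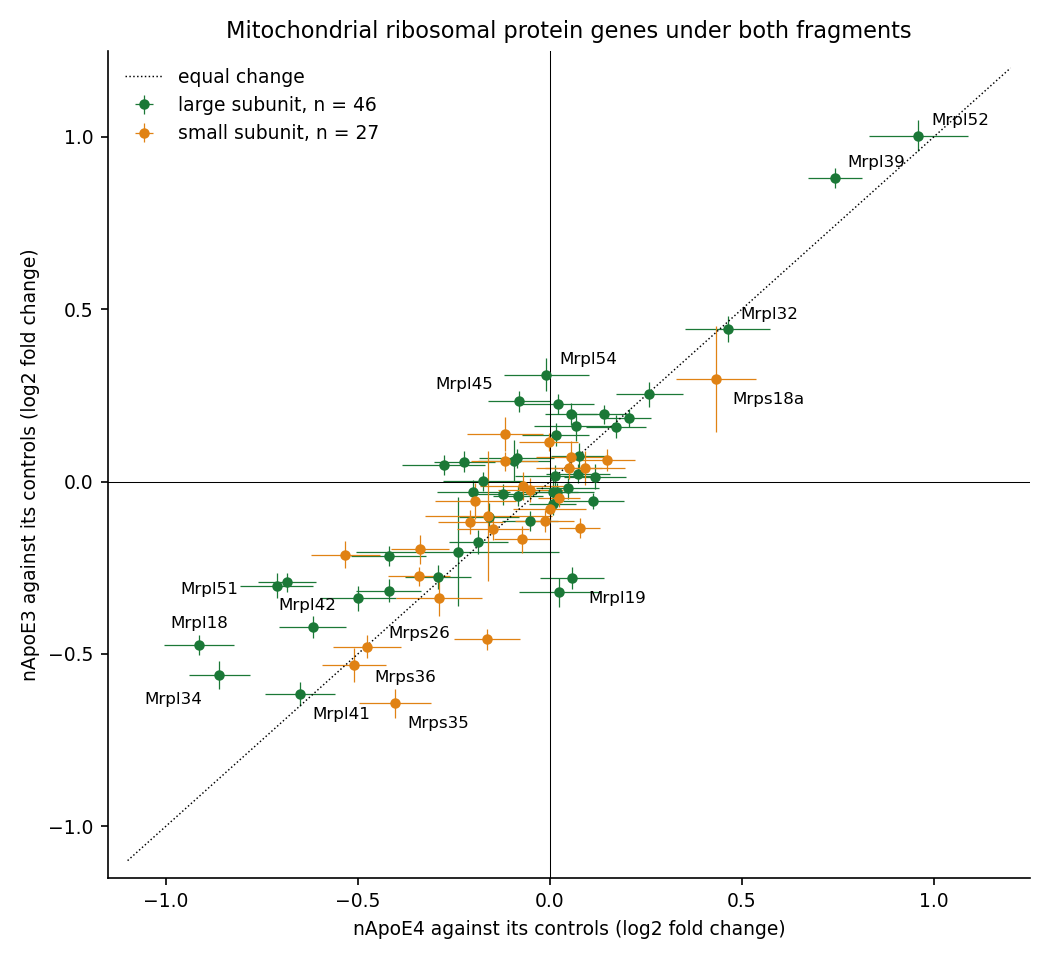
Log2 fold change of each member with nApoE4 1-151 against ControlA (horizontal axis) and with nApoE3 1-151 against ControlB (vertical axis), with bars of 1 standard error. Points mark 46 large and 27 small subunit genes, the dotted line marks equal change, and Mrps10, which had very few counts, lies off the scale and is not drawn. Most points lie near 0 on both axes, with Mrpl52 and Mrpl39 apart at the upper right and Mrpl18, Mrpl34 and Mrpl41 apart at the lower left.

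Among members that reached 5 CPM, the highest rises of both experiments were in 3 genes of the large subunit. Mrpl52, a mitochondria-specific protein of the large subunit (chr14:54426909-54429750, plus strand, GRCm38.p6), stood at 44.5, 57.2 and 38.3 CPM in ControlA and at 90.1, 83.7 and 98.5 CPM with nApoE4 1-151. All 3 treated samples lay above all 3 controls, and the log2 fold change was 0.96 ± 0.13 (SE, adjusted p = 0.000165, edgeR). In the second experiment it stood at 34.1, 35.5 and 37.6 CPM in ControlB and at 74.4 and 68.7 CPM with nApoE3 1-151. The groups again did not overlap, and the log2 fold change was 1.00 ± 0.045 (adjusted p = 1.04e-09, edgeR).

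Mrpl39, a mitochondria-specific protein that resembles a threonyl-tRNA synthetase (chr16:84718281-84735244, minus strand), stood at 43.6, 50.8 and 44.5 CPM in ControlA and at 78.6, 74.3 and 79.3 CPM with nApoE4 1-151. The lowest treated sample was well above the highest control, with a log2 fold change of 0.74 ± 0.07 (adjusted p = 1.37e-05, edgeR). With nApoE3 1-151 it stood at 107 and 106 CPM, against 58.5, 57.0 and 58.2 CPM in ControlB. This was a log2 fold change of 0.88 ± 0.028 (adjusted p = 3.49e-11, edgeR), and replicates differed far less than groups.

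Mrpl32, a protein of bacterial origin whose precursor is cut by the m-AAA protease before it joins the ribosome (chr13:14610301-14613037, minus strand), stood at 22.7, 27.6 and 19.8 CPM in ControlA and at 33.5, 30.1 and 33.0 CPM with nApoE4 1-151. The treated samples lay above the controls, with the ControlA replicate 2 value nearest to them, and the log2 fold change was 0.46 ± 0.11 (adjusted p = 0.00541, edgeR). In ControlB it was 27.6, 28.7 and 28.3 CPM and with nApoE3 1-151 it was 37.6 and 39.0 CPM. The groups did not overlap, and the log2 fold change was 0.44 ± 0.037 (adjusted p = 3.55e-07, edgeR).

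The promoters of these 3 genes are shown because the genes rose together in both experiments, and they are set against those of genes that fell. Each sequence runs 5′ to 3′ on the gene's strand, from 200 bases before to 30 bases after the annotated start, from RefSeq on GRCm38.p6 (Mrpl52 at chr14:54426709-54426938, plus strand, Mrpl39 at chr16:84735215-84735444 and Mrpl32 at chr13:14613008-14613237, minus strand). Capitals mark exact matches on either strand to CCGGAAG, the core of the ETS motif that GABP reads, GCGCATGC, a core of the NRF1 motif, or AAGATGGC, a core of the YY1 motif.
Mrpl52: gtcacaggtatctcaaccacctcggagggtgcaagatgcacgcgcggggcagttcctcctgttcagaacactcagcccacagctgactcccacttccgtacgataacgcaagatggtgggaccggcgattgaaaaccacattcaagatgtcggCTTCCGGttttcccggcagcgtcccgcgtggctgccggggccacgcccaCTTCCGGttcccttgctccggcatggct
Mrpl39: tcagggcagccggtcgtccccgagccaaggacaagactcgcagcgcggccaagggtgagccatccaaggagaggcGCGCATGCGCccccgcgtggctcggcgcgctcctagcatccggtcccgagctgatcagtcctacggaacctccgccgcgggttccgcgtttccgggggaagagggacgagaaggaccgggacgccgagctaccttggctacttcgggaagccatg
Mrpl32: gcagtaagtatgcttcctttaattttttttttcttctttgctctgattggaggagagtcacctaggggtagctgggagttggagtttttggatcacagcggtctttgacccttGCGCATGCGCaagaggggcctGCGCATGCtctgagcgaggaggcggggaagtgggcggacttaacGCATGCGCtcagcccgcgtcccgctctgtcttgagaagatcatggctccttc
The Mrpl52 promoter held the ETS letters on the opposite strand, beginning 47 bases before and 2 bases after the start. Mrpl39 and Mrpl32 held the NRF1 letters, in Mrpl39 as a pair of overlapping matches on opposite strands beginning 125 and 123 bases before the start, and in Mrpl32 as an overlapping pair at 87 and 85 bases and as matches at 66 and 22 bases before it. Mrpl32 also held the YY1 letters, beginning 242 bases before the start and outside the stretch printed. A match describes letters and is not a site of binding.

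The deepest falls with nApoE4 1-151 were also in genes of the large subunit. Mrpl18 (chr17:12911345-12917787, minus strand), a protein of bacterial origin in the central protuberance, whose bacterial relative holds the 5S rRNA, stood at 65.7, 80.0 and 63.6 CPM in ControlA and at 38.0, 34.8 and 38.4 CPM with nApoE4 1-151. Every treated sample lay far under every control, and the log2 fold change was -0.91 ± 0.091 (adjusted p = 2.07e-05, edgeR). In ControlB it was 139.5, 133 and 135 CPM and with nApoE3 1-151 it was 97.6 and 97.9 CPM. The fall there was smaller, with a log2 fold change of -0.47 ± 0.028 (adjusted p = 1.36e-08, edgeR). Its exons share 10.1% of their bases with Tcp1, a chaperonin gene, and how reads there were assigned is unknown.

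Mrpl34, a small protein of bacterial origin (chr8:71464926-71465753, plus strand), stood at 51.1, 56.2 and 46.7 CPM in ControlA and at 28.6, 26.5 and 29.7 CPM with nApoE4 1-151. The groups were well apart, with a log2 fold change of -0.86 ± 0.08 (adjusted p = 1.2e-05, edgeR). It was 76.7, 75.9 and 80.0 CPM in ControlB and 54.9 and 50.1 CPM with nApoE3 1-151. That was a log2 fold change of -0.56 ± 0.041 (adjusted p = 9.61e-08, edgeR), again with no overlap.

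Mrpl41, a mitochondria-specific protein also known to bind Bcl-2 (chr2:24972470-24975098, minus strand), stood at 52.1, 61.4 and 47.9 CPM in ControlA, at 34.4, 32.6 and 35.9 CPM with nApoE4 1-151, at 51.8, 50.6 and 52.3 CPM in ControlB and at 34.3 and 33.0 CPM with nApoE3 1-151. The treated samples of both experiments fell into the same range, under all controls. The log2 fold change was -0.65 ± 0.091 with nApoE4 1-151 (adjusted p = 0.000203) and -0.62 ± 0.035 with nApoE3 1-151 (adjusted p = 8.61e-09, edgeR).

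The promoters of the 3 genes are given in the same way (Mrpl34 at chr8:71464726-71464955, plus strand, Mrpl18 at chr17:12916062-12916291 and Mrpl41 at chr2:24975069-24975298, minus strand). The entry for Mrpl18 was the one nearest the 5′ end of the gene. Its start lies inside the gene's span, which ends at 12917787, so the stretch may not be the promoter at that end.
Mrpl34: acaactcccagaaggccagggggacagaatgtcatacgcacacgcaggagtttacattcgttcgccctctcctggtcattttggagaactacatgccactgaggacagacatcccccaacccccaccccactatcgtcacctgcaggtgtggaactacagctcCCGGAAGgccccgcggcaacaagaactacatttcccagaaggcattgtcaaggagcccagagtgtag
Mrpl18: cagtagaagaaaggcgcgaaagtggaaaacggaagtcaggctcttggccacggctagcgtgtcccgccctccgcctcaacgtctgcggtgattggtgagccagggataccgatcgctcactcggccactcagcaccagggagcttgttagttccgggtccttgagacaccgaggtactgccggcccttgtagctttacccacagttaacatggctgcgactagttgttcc
Mrpl41: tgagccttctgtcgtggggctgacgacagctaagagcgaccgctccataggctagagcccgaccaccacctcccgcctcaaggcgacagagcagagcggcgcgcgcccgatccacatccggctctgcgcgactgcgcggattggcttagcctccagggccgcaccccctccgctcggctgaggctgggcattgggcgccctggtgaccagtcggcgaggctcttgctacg
Mrpl34 held the ETS letters once, beginning 37 bases before the start. In Mrpl18 a match to the same letters began 240 bases before the start of that entry, outside the stretch printed, and Mrpl41 held none of the 3 motifs.

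Mrpl51 and Mrpl42, both mitochondria-specific proteins of the large subunit, completed the 4 deepest falls with nApoE4 1-151. Mrpl51 stood at 102, 116 and 90.3 CPM in ControlA and at 66.3, 57.1 and 64.9 CPM in the treated samples, a log2 fold change of -0.71 ± 0.096 (adjusted p = 0.000163, edgeR). Mrpl42 stood at 77.5, 85.8 and 74.7 CPM in ControlA and at 49.6, 45.6 and 52.9 CPM, a log2 fold change of -0.69 ± 0.076 (adjusted p = 4.14e-05, edgeR). Neither gene's groups overlapped. With nApoE3 1-151 the falls were 0.30 and 0.29 on the log2 scale, with both treated samples (62.3 and 57.8 CPM for Mrpl51, 90.8 and 92.8 CPM for Mrpl42) again under the 3 ControlB samples, whose values were 72.8, 73.7 and 75.6 CPM for Mrpl51 and 112, 110.3 and 115 CPM for Mrpl42.

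Among the genes of the small subunit, Mrps35 and Mrps36 fell most with nApoE3 1-151. Mrps35, a mitochondria-specific protein of the head of the small subunit (chr6:147042728-147070906, plus strand), stood at 24.0, 24.5 and 24.6 CPM in ControlB and at 15.9 and 15.3 CPM with nApoE3 1-151, a log2 fold change of -0.64 ± 0.043 (adjusted p = 4.02e-08, edgeR). With nApoE4 1-151 it stood at 24.6, 23.4 and 26.3 CPM against 32.6, 37.0 and 28.7 CPM in ControlA, a log2 fold change of -0.40 ± 0.094 (adjusted p = 0.00483, edgeR). The treated samples were under the controls in both experiments. Mrps36, which carries the name of a ribosomal protein but is known as a subunit of the 2-oxoglutarate dehydrogenase complex and is missing from the ribosome's structures, stood at 17.3, 17.3 and 17.7 CPM in ControlB and at 12.5 and 11.5 CPM with nApoE3 1-151. In ControlA it was 23.6, 25.4 and 20.9 CPM, and with nApoE4 1-151 it was 16.1, 15.9 and 17.0 CPM. Its log2 fold changes were -0.53 ± 0.05 (adjusted p = 1.19e-06) and -0.51 ± 0.083 (adjusted p = 0.000552, edgeR), in the same order, and 22.6% of its stretches of 75 bases, the length of a read, also occur elsewhere, in pseudogenes.

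**Figure D2:**
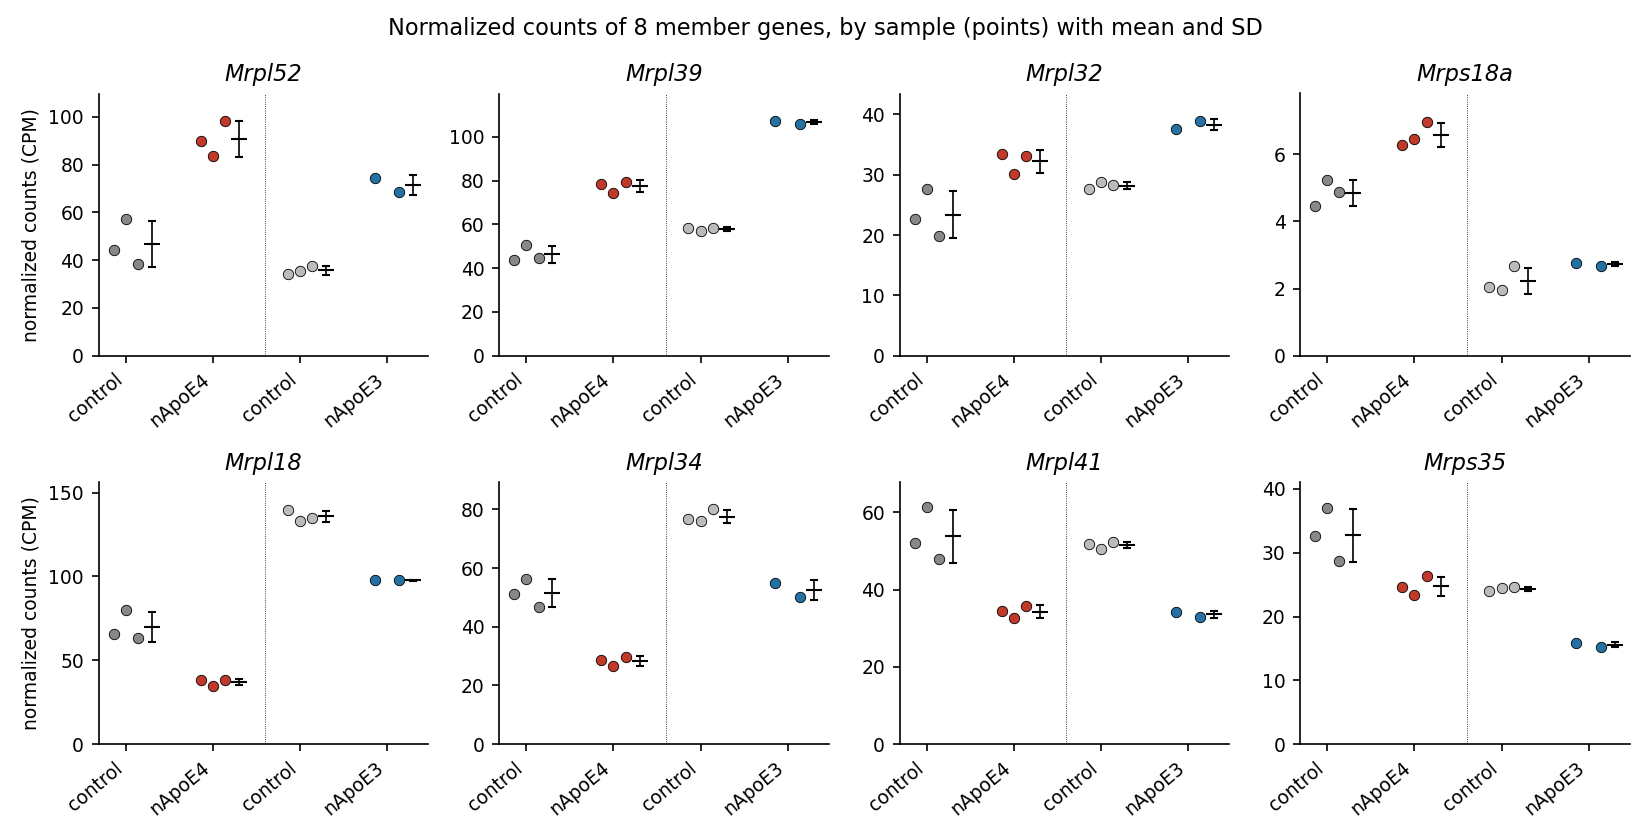
Level of 8 members in each sample, in CPM from 0, in the groups ControlA, ApoE4, ControlB and ApoE3. Points are samples and bars give the mean and SD. In all 8 panels the treated samples lie on the same side of their controls in both experiments, and the change in Mrps18a passed the test with nApoE4 1-151 alone. Each gene was named for a call with the same sign in every treated sample of an experiment. The side within that experiment thus follows from the choice. Of all genes, 76.7% had the same sign in both experiments.

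Of the 74 members tested in both experiments, 16 were lower in both, 5 were higher in both and 0 were called in opposite directions. Those lower in both were Mrpl2, Mrpl12, Mrpl18, Mrpl28, Mrpl34, Mrpl41, Mrpl42, Mrpl43, Mrpl49, Mrpl51, Mrps12, Mrps15, Mrps21, Mrps26, Mrps35 and Mrps36. Those higher in both were Mrpl3, Mrpl27, Mrpl32, Mrpl39 and Mrpl52, of which Mrpl3 and Mrpl27 no longer passed the test with nApoE4 1-151 when ControlA replicate 1 or 3 or ApoE4 replicate 1 or 3 was left out. Mrpl2 was lost with nApoE4 1-151 without ApoE4 replicate 1. A further 13 were lower and 10 higher with nApoE3 1-151 alone, Mrpl50 was lower and Mrps18a higher with nApoE4 1-151 alone, and 28 passed in neither. The share of all genes called in both experiments was not counted. In each experiment by itself, 57.2% (nApoE4 1-151) and 67.7% (nApoE3 1-151) of all genes were called, against 31.1% and 60% of the members. The shared calls are therefore not read as particular to these genes. The call of Mrpl50 was lost without ControlA replicate 1 or 2 or ApoE4 replicate 1 or 2. With all 11 samples in a joint fit, 14 of the 45 calls with nApoE3 1-151 were lost and 0 of the 23 with nApoE4 1-151. The experiments share no samples. Across the 74 members their log2 fold changes had a Spearman correlation of 0.693 and a Pearson correlation of 0.654, and across all 13750 genes tested in both these were 0.719 and 0.827. In the 46 large subunit genes the Spearman and Pearson values were 0.739 and 0.882. In the 28 small subunit genes, which include Mrps10 with its very few counts, they were 0.641 and 0.275. Genes are not independent replicates, so these values are descriptions. The same sign was found in 73% of the members and in 76.7% of all genes.

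The experiments differed in precision. The biological coefficient of variation of the fit was 0.0838 in the nApoE4 1-151 experiment and 0.0262 in the nApoE3 1-151 experiment, and the median standard error of a member's log2 fold change was 0.0866 and 0.0332. The counts of calls are thus no measure of which response was stronger, and a member called in 1 experiment alone is not shown to differ between them.

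An interaction term over the 11 samples compared the response to nApoE4 1-151 with that to nApoE3 1-151. Of 75 members tested, 7 had a lower log2 fold change with nApoE4 1-151 than with nApoE3 1-151 (9.33%) and 2 had a higher one (2.67%), where 13.9% and 14.4% of all 15287 genes tested did, or 28.3% in either direction. Among members past the threshold, the largest differences were in Mrpl18 (-0.45 ± 0.112, adjusted p = 0.00916), Mrpl51 (-0.42 ± 0.123, adjusted p = 0.0213), Mrpl42 (-0.40 ± 0.092, adjusted p = 0.00524) and Mrps21 (-0.33 ± 0.114, adjusted p = 0.0459, edgeR). Single libraries moved these counts, from 2 lower without ApoE4 replicate 2 to 16 without ControlA replicate 3, and from 0 higher without ControlA replicate 1, ApoE4 replicate 3, ControlB replicate 1 or either ApoE3 library to 6 without ControlA replicate 2. Mrpl18 and Mrpl42 passed whichever library was left out, whereas Mrpl51 was lost without ApoE4 replicate 2 or ApoE3 replicate 1, and Mrps21 in 8 of 11 such fits. In these 4, both fragments lowered the gene and the fall was larger with nApoE4 1-151. Mrps21, which descends from bacterial S21, stood at 49.9, 56.4 and 44.7 CPM in ControlA, 37.4, 32.9 and 33.9 CPM with nApoE4 1-151, 52.6, 51.7 and 55.6 CPM in ControlB and 46.8 and 45.2 CPM with nApoE3 1-151. In Mrpl52, the difference was -0.06 ± 0.169 on the log2 scale (adjusted p = 0.852, edgeR), which does not show that the fragments acted alike on it.

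The 2 members with a higher value for nApoE4 1-151 were Mrpl19 (0.33 ± 0.104, adjusted p = 0.0333) and Mrps9 (0.20 ± 0.062, adjusted p = 0.0273, edgeR), and both were lost without ControlA replicate 1, ApoE4 replicate 3, ControlB replicate 1 or either ApoE3 library. Mrpl19, a protein of bacterial origin, stood at 67.9, 76.0 and 61.5 CPM in ControlA and at 69.7, 68.1 and 75.9 CPM with nApoE4 1-151, with overlapping groups. In ControlB it was 103, 101 and 108 CPM and with nApoE3 1-151 it was 85.9 and 85.6 CPM, a log2 fold change of -0.28 ± 0.033 (adjusted p = 8.95e-06, edgeR). Its exons share 36.0% of their bases with Gcfc2, and how reads there were assigned is unknown. Mrps9, a protein of the head of the small subunit, was 79.2, 81.0 and 78.4 CPM in ControlA, 82.9, 82.6 and 86.4 CPM with nApoE4 1-151, 92.6, 94.6 and 89.5 CPM in ControlB and 84.6 and 83.5 CPM with nApoE3 1-151. Only the groups of the second experiment passed the test for it, with a log2 fold change of -0.14 ± 0.03 (adjusted p = 0.00174, edgeR).

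Large and small subunit genes were described by counts and medians, without a test over the members. With nApoE4 1-151, 11 of 46 large subunit genes were lower (23.9%) and 5 higher (10.9%), with a median log2 fold change of -0.03. Of 28 small subunit genes, 6 were lower (21.4%) and 1 higher (3.57%), with a median of -0.10. Of all genes tested, 28.6% were lower and 28.6% higher. With nApoE3 1-151, 15 of 47 large subunit genes were lower (31.9%) and 14 higher (29.8%), with a median of -0.02. Of 28 small subunit genes, 14 were lower (50%) and 2 higher (7.14%), with a median of -0.11. Of all genes tested, 34.6% were lower and 33.1% higher. The nApoE3 1-151 median of the large subunit was 0.02 without ApoE3 replicate 2. Scaled by library totals alone, the nApoE3 1-151 medians were -0.15 and -0.24, with the small subunit again the lower. Without ControlA replicate 2 the nApoE4 1-151 medians were 0.03 for the large and -0.02 for the small subunit.

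The structures of the mammalian mitoribosome place Mrps30 and Mrps18a in the large subunit. With both moved and Mrps36 left out, 13 of 25 small subunit genes were lower (52%) and 2 higher (8%) with nApoE3 1-151 (median -0.12). Of 49 large subunit genes, 15 were lower (30.6%) and 14 higher (28.6%), with a median of 0.00. The shares of all genes were 34.6% and 33.1%. With nApoE4 1-151, 5 of 25 small subunit genes were lower (20%) and 0 higher (median -0.12). Of 48 large subunit genes, 11 were lower (22.9%) and 6 higher (12.5%), with a median of 0.00. The shares of all genes were 28.6% and 28.6%.

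The summed level of the large subunit genes was 2942, 3347 and 2693 CPM in ControlA and 2844, 2652 and 2900 CPM with nApoE4 1-151. That of the small subunit genes was 1299, 1488 and 1234 CPM in ControlA and 1240, 1175 and 1270 CPM with nApoE4 1-151. ControlA replicate 2 was the highest of the 6 samples in both sums, and its cytosolic ribosomal protein genes were also the highest, at 74260 CPM against 55360 and 61670 CPM in the other ControlA samples. ApoE4 replicate 2 was the lowest of the 6 in both sums, the other treated samples lay within the range of the controls, and the sums changed by -6.51% and -8.36%, less than the spread of the controls (2994 ± 330 and 1340 ± 132 CPM, SD, n = 3).

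In the second experiment the large subunit sum was 3369, 3310 and 3415 CPM in ControlB and 3356 and 3274 CPM with nApoE3 1-151, with overlapping groups and a change of -1.49%. The small subunit sum was 1480, 1462 and 1496 CPM in ControlB and 1378 and 1339 CPM with nApoE3 1-151. The small subunit samples did not overlap, and this change of -8.18% was larger than the spread of the controls (1479 ± 17.0 CPM, SD, n = 3).

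The ratio of the sums, large over small, was 2.265, 2.249 and 2.182 in ControlA and 2.294, 2.257 and 2.283 with nApoE4 1-151. These groups overlapped. In ControlB it was 2.276, 2.264 and 2.283, and with nApoE3 1-151 it was 2.435 and 2.445. The means were 2.27 ± 0.01 (SD, n = 3) and 2.44 ± 0.007 (SD, n = 2), and the nApoE3 1-151 samples had the highest ratios of all 11. A ratio within a sample does not depend on how the libraries are scaled.

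**Figure D3:**
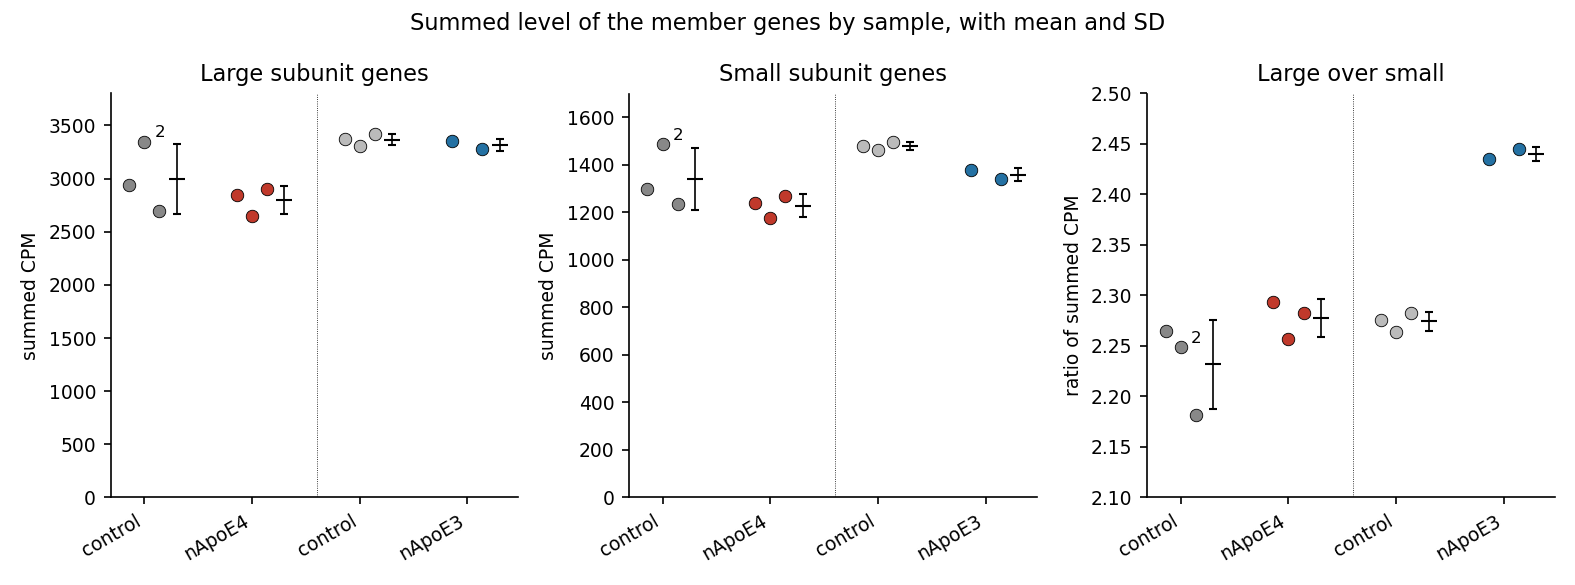
Summed CPM of the large and of the small subunit genes, from 0, and their ratio, on an axis that does not start at 0, in each sample of the 4 groups. Points are samples and bars give the mean and SD, and the digit 2 marks ControlA replicate 2. The nApoE3 1-151 samples stand apart in the ratio, at 2.435 and 2.445, while the nApoE4 1-151 samples overlap with ControlA.

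By origin, 8 of 44 members that descend from the bacterial ribosome were lower (18.2%) and 3 higher with nApoE4 1-151, and 17 were lower (38.6%) and 8 higher with nApoE3 1-151. Of the mitochondria-specific members, 8 of 28 were lower (28.6%) and 3 higher with nApoE4 1-151, and 10 of 29 were lower (34.5%) and 8 higher with nApoE3 1-151. Of all genes, 28.6% and 34.6% were lower, and 28.6% and 33.1% were higher. Around the exit of the peptide tunnel, 1 of 9 was lower and 1 higher with nApoE4 1-151, and 1 was lower and 3 higher with nApoE3 1-151. In the head of the small subunit, 1 of 7 was lower and 0 higher with nApoE4 1-151, and 3 were lower and 1 higher with nApoE3 1-151. In the central protuberance, the site of Mrpl18, 1 of 5 was lower and 1 higher with nApoE4 1-151, and 1 of 6 was lower and 3 higher with nApoE3 1-151, Mrpl40 among them. In the platform of the small subunit, 1 of 4 was lower with nApoE4 1-151 and 2 with nApoE3 1-151. Mrpl45, which anchors the mitoribosome to the inner membrane beside the tunnel exit, was 65.9, 75.04 and 62.5 CPM in ControlA and 67.3, 59.6 and 65.5 CPM with nApoE4 1-151, with overlapping groups. With nApoE3 1-151 it rose to 93.1 and 91.1 CPM from 78.8, 76.2 and 80.2 CPM in ControlB, a log2 fold change of 0.23 ± 0.03 (adjusted p = 2.18e-05, edgeR).

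At the stalk, which recruits translation factors, 1 of 5 members was lower and 0 higher with nApoE4 1-151. With nApoE3 1-151, 1 was lower and 2 higher. The shares of all genes were 28.6% lower and 28.6% higher with nApoE4 1-151, and 34.6% and 33.1% with nApoE3 1-151. Mrpl12, the homolog of the bacterial L7/L12 stalk protein, fell from 214, 239 and 182 CPM in ControlA to 163, 147 and 163 CPM with nApoE4 1-151 (log2 fold change -0.42 ± 0.097, adjusted p = 0.0045) and from 177, 174 and 185 CPM in ControlB to 156 and 151 CPM with nApoE3 1-151 (-0.22 ± 0.03, adjusted p = 4.16e-05, edgeR). The treated samples were under all controls in both experiments. Mrpl54, a mitochondria-specific member, was 22.04, 20.15 and 22.31 CPM in ControlB and 26.6 and 26.7 CPM with nApoE3 1-151, a rise of 0.31 ± 0.048 on the log2 scale (adjusted p = 9.49e-05, edgeR). With nApoE4 1-151 its samples (44.1, 42.6 and 49.2 CPM) overlapped with ControlA (46.3, 52.5 and 37.9 CPM). Mrps12, homolog of the bacterial protein at the decoding centre, was 45.51, 48.05 and 39.82 CPM in ControlA and 36.2, 33.9 and 35.5 CPM with nApoE4 1-151, a log2 fold change of -0.34 ± 0.076 (adjusted p = 0.00395, edgeR). It was 44.2, 41.5 and 45.6 CPM in ControlB and 37.4 and 39.0 CPM with nApoE3 1-151, a log2 fold change of -0.20 ± 0.043 (adjusted p = 0.00143, edgeR).

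Of the 3 paralogs of bacterial S18, Mrps18a alone passed a test against untreated controls. Mrps18a, which sits in the large subunit, was 4.47, 5.24 and 4.86 CPM in ControlA and 6.28, 6.44 and 6.97 CPM with nApoE4 1-151, a log2 fold change of 0.43 ± 0.104 (adjusted p = 0.00558, edgeR). In the second experiment it was 2.06, 1.95 and 2.67 CPM in ControlB and 2.77 and 2.69 CPM with nApoE3 1-151. The groups did not overlap there either, but the log2 fold change of 0.30 ± 0.154 did not pass the test (adjusted p = 0.108, edgeR), and the difference between the fragments was 0.12 ± 0.182. Mrps18c was 36.7, 42.0 and 34.3 CPM in ControlA, 35.4, 34.8 and 38.8 CPM with nApoE4 1-151, 66.8, 63.7 and 66.9 CPM in ControlB and 66.4 and 62.9 CPM with nApoE3 1-151, with overlapping groups in both experiments. Mrps18b had 64 to 110 counts per sample, and its log2 fold changes of -0.16 ± 0.166 and -0.10 ± 0.19 did not pass the test. Of the 75-base stretches of Mrps18b, 56.4% also occur in annotated transcripts of other genes. Among these is Gm16279, which overlaps 30.5% of the exon bases of Mrps18b at the same place. Mrps30, another member placed in the large subunit, had log2 fold changes of 0.05 ± 0.086 and 0.04 ± 0.033, neither past the test, with levels of 63.7, 78.7 and 64.8 CPM in ControlA and 72.1, 67.9 and 74.6 CPM with nApoE4 1-151.

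Levels were compared between genes as CPM per kb of transcript. The median member stood at 31.8 in ControlA, 31.6 with nApoE4 1-151, 38.4 in ControlB and 38.9 with nApoE3 1-151. The highest in ControlA were Mrpl12 (161 ± 21.8 CPM per kb, SD, n = 3), Mrpl20 (158 ± 24.7) and Mrpl42 (119 ± 8.67), of which Mrpl12 and Mrpl20 did not differ beyond their spread. Mrpl20, whose bacterial homolog acts early in assembly of the large subunit, was 119, 141 and 103 CPM in ControlA and 109, 100.4 and 112 CPM with nApoE4 1-151, with overlapping groups and a log2 fold change of -0.17 ± 0.104 (adjusted p = 0.179, edgeR). In ControlB it was 109.5, 110.1 and 114 CPM and with nApoE3 1-151 it was 112 and 109.9 CPM.

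A few members were near the floor. Mrpl33 had 0 counts in all 11 samples and Mrps23 had 1 to 8 counts, and neither was tested. The overlap mode and annotation of the counting are not given in the sources used here and their part in these low counts was not tested, so that no level of the genes is read from them. Mrpl40 had 3 to 17 counts in 10 samples and 263 in ApoE3 replicate 2. Its log2 fold change of 3.83 with nApoE3 1-151 (SE 0.983, adjusted p = 0.00421, edgeR) rests on that library and was -0.91 (adjusted p = 0.354) without it. Mrps10 ranged from 7 to 157 counts, with the highest in ApoE4 replicate 2, and did not pass either test. In Mrpl53, Mrps25 and Mrps34, 69.8 to 88.0% of the exon bases overlap exons of other genes. The strand setting of the counting is not given in the sources used here either. How reads shared with the partners were assigned is therefore unknown.

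The untreated cells of the experiments also differed in these genes. The median size of a member's log2 difference between ControlB and ControlA was 0.35, where that of all genes was 0.44 and that of the members' changes with treatment was 0.15 and 0.16. Between ControlB and ControlA, 37 of 74 members were higher (50%) and 14 lower (18.9%) in ControlB, where 34.4% and 34.9% of all 14249 genes tested were. In either direction this was 68.9% of the members and 69.3% of all genes. The count of 14 was 9 without ControlB replicate 2. The median log2 difference of the members was 0.23, and that of all genes was -0.01. Mrpl23, whose protein lines the tunnel exit, was lowest in ControlB by comparison (log2 difference -1.22 ± 0.1, adjusted p = 1.52e-05, edgeR), but 50.4% of its 75-base stretches occur elsewhere, including a pseudogene. Mrps18a (-1.08 ± 0.141) and Mrpl54 (-1.03 ± 0.113) followed, and Mrpl18 was the highest (1.01 ± 0.085). In 73 cytosolic ribosomal protein genes the difference ran the other way, with 59 lower and 3 higher in ControlB and a median of -0.67.

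Related gene lists were read from the same fits. The proteins of the mitoribosome named otherwise (Dap3, Aurkaip1, Chchd1, Ptcd3, Gadd45gip1 and Ict1) had 3 of 6 lower with nApoE4 1-151 and 4 of 6 lower with nApoE3 1-151, with 0 higher in either. Among all genes tested, 28.6% were lower and 28.6% higher with nApoE4 1-151, and 34.6% and 33.1% with nApoE3 1-151. A list of 6 genes is too short to set firmly against these shares. Dap3, a GTP-binding protein of the small subunit, was 110, 129 and 104 CPM in ControlA and 97.2, 96.8 and 99.4 CPM with nApoE4 1-151, a log2 fold change of -0.22 ± 0.081 (adjusted p = 0.04, edgeR). With nApoE3 1-151 it changed by -0.18 ± 0.026 (adjusted p = 4.71e-05, edgeR). Ptcd3 (-0.16 and -0.12), a pentatricopeptide repeat protein of the small subunit, and Gadd45gip1 (-0.26 and -0.18) passed in both, Aurkaip1 passed with nApoE3 1-151 alone (-0.09), and Chchd1 (0.03 and -0.04) and Ict1 (-0.01 and -0.09) in neither. The count of 3 with nApoE4 1-151 was 0 when ControlA replicate 1 or any one of the ApoE4 libraries was left out.

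Nuclear-encoded subunits of oxidative phosphorylation have membrane partners that the mitoribosome makes. Of 79 tested, 13 were lower (16.5%) and 3 higher (3.8%) with nApoE4 1-151 (median log2 fold change -0.16). With nApoE3 1-151, 46 were lower (58.2%) and 1 higher (1.27%), with a median of -0.11. The shares among all genes tested were 28.6% lower and 28.6% higher with nApoE4 1-151, and 34.6% and 33.1% with nApoE3 1-151. The 13 became 37 without ControlA replicate 3 and 40 when libraries were scaled by their totals alone, and the 46 became 73 with that scaling. With library totals alone, 4993 of all 14240 genes were lower and 3316 higher with nApoE4 1-151. With nApoE3 1-151, 6783 of all 14817 genes were then lower and 3595 higher. Without ControlA replicate 3, 4043 of all 14511 genes were lower. The 13 were also 7 without ApoE4 replicate 2 and 8 without ApoE4 replicate 1, and the 3 higher became 8 without ControlA replicate 2. Of 73 cytosolic ribosomal protein genes, 0 passed in either direction with nApoE4 1-151, though 17 were higher without ControlA replicate 2, and 2 were lower and 42 higher with nApoE3 1-151, which turned to 32 lower and 8 higher with library totals alone.

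**Figure D4:**
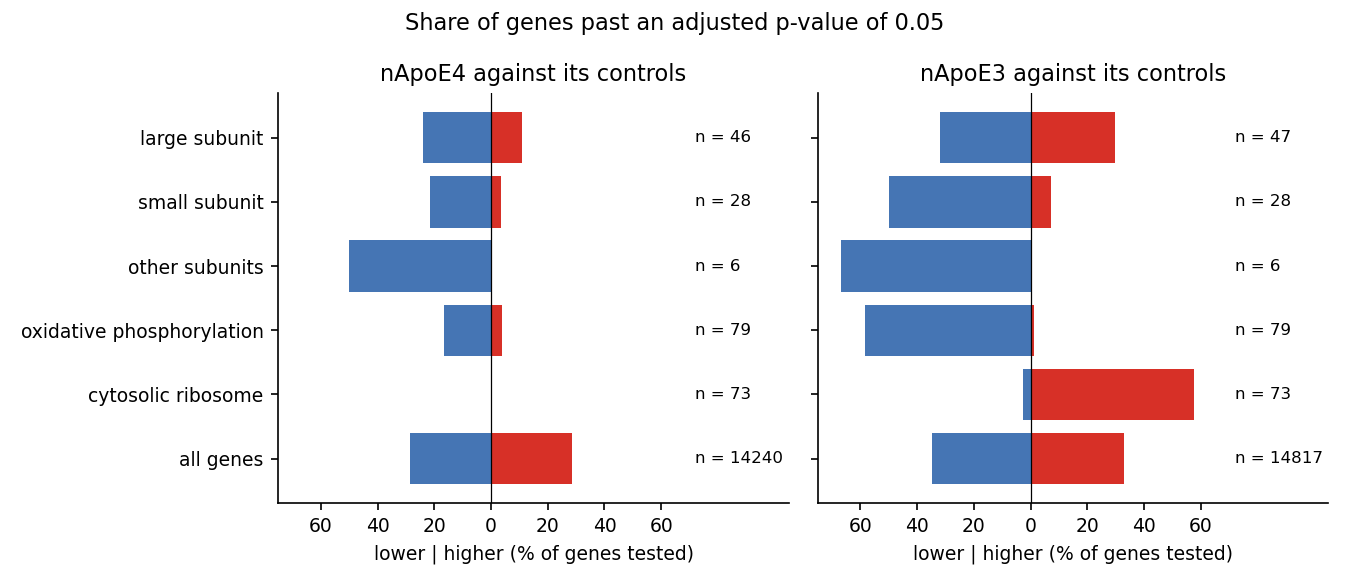
Percent of the tested genes of each list that were lower (left, blue) or higher (right, red) at an adjusted p under 0.05, for each fragment, with the number tested. The members' bars, drawn by subunit, are short beside those of all genes with nApoE4 1-151. They reach 23.9% lower and 10.9% higher (large) and 21.4% and 3.57% (small), against 28.6% and 28.6%. The cytosolic ribosomal protein genes reach 57.5% higher with nApoE3 1-151 (42 of 73 genes), against 33.1% of all genes. That direction turns to 32 lower and 8 higher genes when libraries are scaled by their totals alone. Of all 14817 genes, 6783 are then lower and 3595 higher.

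Factors that work with the mitoribosome were read beside the share of all genes (28.6% lower and 28.6% higher with nApoE4 1-151, 34.6% and 33.1% with nApoE3 1-151). Of 18 translation factors of mitochondria, 5 were lower (27.8%) and 1 higher with nApoE4 1-151, and 10 were lower (55.6%) and 2 higher with nApoE3 1-151. The release factor-like gene 2810006K23Rik (-0.52 and -0.54 on the log2 scale), the peptide deformylase Pdf (-0.51 and -0.41) and the elongation factor Guf1 (-0.28 and -0.45) fell in both. Of 20 mitochondrial aminoacyl-tRNA synthetases, 7 were lower (35%) and 5 higher with nApoE4 1-151, and 12 were lower (60%) and 3 higher with nApoE3 1-151. With library totals alone, 9 translation factors were lower and 0 higher with nApoE4 1-151 and 15 were lower and 0 higher with nApoE3 1-151. For the synthetases these were 9 and 3, and 16 and 1. Under that scaling all genes also moved down, with 4993 lower and 3316 higher of 14240 with nApoE4 1-151. With nApoE3 1-151, 6783 were lower and 3595 higher of 14817. Wars2, which charges tRNA with tryptophan, rose (0.82 and 0.24), whereas Cars2 (-0.69 and -0.50) and Pars2 (-0.46 and -0.60), for cysteine and proline, fell in both.

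Among genes for assembly of the mitoribosome and modification of its RNA, 5 of 26 were lower (19.2%) and 8 higher (30.8%) with nApoE4 1-151, and 10 were lower (38.5%) and 7 higher (26.9%) with nApoE3 1-151, which became 5 and 5, and 14 and 4, with library totals alone. Rbfa, which helps mature the small subunit RNA, fell from 48.4, 52.8 and 50.3 CPM in ControlA to 27.8, 26.2 and 25.7 CPM with nApoE4 1-151 (log2 fold change -0.93 ± 0.062, adjusted p = 1.12e-06, edgeR) and from 32.1, 29.0 and 32.2 CPM in ControlB to 19.4 CPM in both samples with nApoE3 1-151 (-0.68 ± 0.051). The groups were far apart in both experiments. Mettl17, a small subunit assembly factor, fell (-0.49 and -0.72), and Mterf3, which acts in large subunit assembly and in mitochondrial transcription, rose (0.51 and 0.33). Mettl15, a methyltransferase for the small subunit RNA, rose with nApoE4 1-151 (0.69) and did not pass with nApoE3 1-151 (0.20, adjusted p = 0.0813, edgeR). Mpv17l2 had very few counts, and its call with nApoE3 1-151 (-1.34) was lost without either treated library. Of 10 genes for transcription and copying of mitochondrial DNA, 3 were lower (30%, near the share of all genes) and 0 higher with nApoE4 1-151, namely Polrmt, the RNA polymerase (-0.36), Tfb2m, its initiation factor (-0.31), and Polg2, a DNA polymerase subunit (-0.83). With nApoE3 1-151, 5 were lower, these 3 among them (-0.44, -0.27 and -0.21) along with Polg (-0.28), and 4 were higher, among them Mterf2 (0.53), a count that was 2 with library totals alone. The call of Polg2 was lost without ControlB replicate 1 or ApoE3 replicate 1, and that of Mterf2 without ApoE3 replicate 1.

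Of 10 nuclear regulators, 3 were lower and 4 higher with nApoE4 1-151, and 3 were lower and 5 higher with nApoE3 1-151. With library totals alone these were 4 and 4, and 4 and 3. The shares of all genes in the main fits were 28.6% lower and 28.6% higher with nApoE4 1-151, and 34.6% and 33.1% with nApoE3 1-151. The subunits of GABP, an ETS factor of many mitochondrial genes, rose for Gabpa (0.25 and 0.30) and Gabpb1 (0.80 and 0.61), whereas Gabpb2 had values of -0.05 (not past the test) and -0.24. Nrf1 rose with nApoE4 1-151 (0.38) and by 0.12 with nApoE3 1-151, a call lost without ApoE3 replicate 1 and a value of -0.01 with library totals alone, and Yy1 passed in neither (-0.11 and 0.02). Myc, an activator of ribosome synthesis, was 0.649, 0.863 and 0.657 CPM in ControlA and 8.33, 9.65 and 8.93 CPM with nApoE4 1-151, and 0.304, 0.41 and 0.485 CPM in ControlB and 4.59 and 4.47 CPM with nApoE3 1-151. These were log2 fold changes of 3.63 ± 0.145 and 3.51 ± 0.179. The coactivator Ppargc1b (-0.84 and -1.04) and the receptor Esrra (-0.27 and -0.58) fell in both, and Ppargc1a fell with nApoE4 1-151 (-2.25) from a level of 1.63 to 2.33 CPM, with a value of 0.73 that did not pass the test with nApoE3 1-151. Pprc1 had 0.19, not past the test, and 0.11, which was -0.03 with library totals alone.

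**Figure D5:**
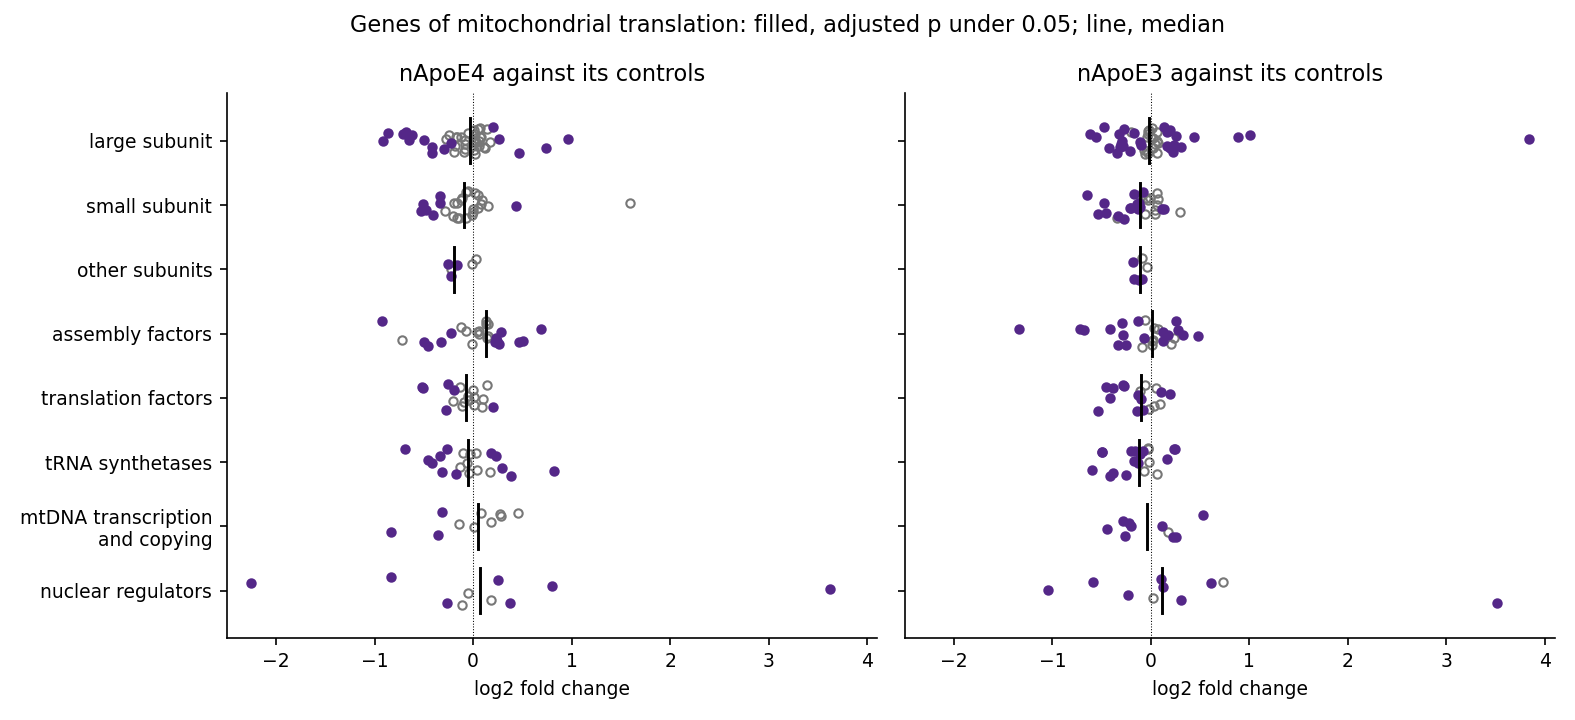
Log2 fold change of each tested gene in 8 lists, with nApoE4 1-151 and with nApoE3 1-151. Filled points passed an adjusted p under 0.05 and the line marks the median. The members lie close to 0, with medians of -0.07 and -0.04, and Myc is the highest of the nuclear regulators at 3.63 and 3.51.

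What the members share beyond their names was read from the annotation. Promoters (250 bases before to 50 after the start, RefSeq, GRCm38.p6) were matched for 68 of 77 members. The entry nearest the 5′ end of each gene was taken, which could lie inside the gene, as in Mrpl18. The ETS letters CCGGAAG were in 33.8% of them, against 9.14% of all 27025 promoters and 16.6% of the promoters of genes tested. The YY1 letters AAGATGGC were in 17.6%, against 2.87% and 4.35%, and the NRF1 letters GCGCATGC in 11.8%, against 2.8% and 5.0%. The E-box CACGTG (7.35%, against 7.24% and 9.83%) and the letters TGACGTCA of the CRE (2.94%, against 1.85% and 3.06%) were near the share of all promoters. These counts were made on both strands, and the letters of different motifs may overlap.

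Holders of the ETS and YY1 letters were called in both directions. Of 21 tested holders of the ETS letters, 7 were lower and 4 higher with nApoE4 1-151, and 8 were lower and 5 higher with nApoE3 1-151. Of 12 holders of the YY1 letters, 3 were lower and 2 higher with nApoE4 1-151, and 6 were lower and 2 higher with nApoE3 1-151. Of 7 tested holders of the NRF1 letters, 0 were lower and 2 higher with nApoE4 1-151, and 0 were lower and 3 higher with nApoE3 1-151. Mrpl32 and Mrpl39, whose promoters were printed because they rose, are the 2 and are among the 3. Among all genes tested, 28.6% were lower and 28.6% higher with nApoE4 1-151, and 34.6% and 33.1% with nApoE3 1-151. No link of the letters to the direction is read from these counts. The median log2 fold change of the NRF1 holders was 0.02 and -0.04, against -0.08 and -0.04 in the 60 members without the letters. For the ETS letters the medians were -0.07 and -0.03 in holders and -0.08 and -0.04 in the 45 others, and for the YY1 letters -0.16 and -0.09 in holders and -0.07 and -0.03 in the 56 others. These are values of few genes and were not tested.

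Many members share a start region with a neighbour on the other strand. A gene on the opposite strand began within 1000 bases upstream of, or overlapped by at most 100 bases with, the start of 19 of 77 members (24.7%), against 7.23% of 21951 protein-coding genes. Mrpl32 faced Psma2, a proteasome subunit, at 75 bases, Mrpl51 faced Ncapd2, a condensin subunit, at 100 bases, and Mrpl54 faced Apba3 at 26 bases.

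Members were short genes, with a median span of 7.61 kb against 22.7 kb for all genes tested. With nApoE4 1-151 the median span was 4.12 kb in the 17 lower members, 7.75 kb in those not called and 12.6 kb in the 6 higher. With nApoE3 1-151 these were 5.97, 7.81 and 7.73 kb. Across members, the Spearman correlation of span with log2 fold change was 0.382 with nApoE4 1-151 and 0.191 with nApoE3 1-151, and across all genes tested it was 0.105 and 0.039. These correlations are across genes within an experiment and are given without a test.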

How the data were processed

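RNA from 11 samples of BV2 cells was sequenced as single-end reads of 75 bases. The authors used Trim Galore 0.5.0 for trimming, FastQC 0.11.8 for quality, HISAT2 2.1.0 for mapping to GRCm38.p6 and HTSeq 0.11.0 for counting, and deposited the unnormalized counts of 36529 gene symbols. The annotation release, the strand setting and the overlap mode are not given in the sources used here. Tallies that name no gene made up 22.29 to 23.97% of the tallied reads (11.67 to 13.18% not uniquely mapped, 3.24 to 3.563% ambiguous) and were left out of library sizes and tests.

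Groups and controls were taken from the labels. The tests were edgeR's quasi-likelihood F tests (edgeR 4.0.16 in R 4.3.3) after TMM scaling of genes kept by filterByExpr, and p-values were adjusted over all genes tested by Benjamini and Hochberg's method, with a threshold of 0.05. ApoE4 was set against ControlA, ApoE3 against ControlB and ControlB against ControlA, and the fragments were set against each other through an interaction over 11 samples. Printed CPM are TMM-normalized within an experiment. Each standard error is an approximation, the absolute log2 fold change over the square root of F. The fits were tested on simulated data. Promoters and positions were read from RefSeq tables and an annotation of GRCm38.p6, and stretches of 75 bases were compared with all annotated transcripts.

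The members and lists were chosen with earlier results of these data known. Members named with full values were, for each fragment and direction, the 4 with the largest log2 fold change among those past the threshold, with a mean of at least 5 CPM in a group and the same sign in every treated sample; the 4 largest differences between fragments in each direction; the 3 highest and 3 lowest per kb; and Mrps18a, Mrps18b, Mrps18c, Mrpl12, Mrps12, Mrpl45, Mrps30 and Mrps36. In the other lists, at most 3 genes per list and fragment were named by the same measure, and every regulator and otherwise named ribosomal protein. A gene that this rule names is not reported here. Other members are named as complete sets of calls, after their values were seen. The alternatives were DESeq2 1.42.0 with its Wald test, DESeq2's size factors, library totals alone, other filters on low counts, thinning to the smallest library, all 11 samples in a joint fit, replicate number as a block, and leaving out each replicate.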

Additional observations from a re-analysis of the deposited data

Results flagged for a closer look

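The log2 fold change differed between the fragments in 9 of 75 members tested (interaction over 11 samples, edgeR's quasi-likelihood test, adjusted over all genes), where 28.3% of all genes did. The value with nApoE4 1-151 minus that with nApoE3 1-151 was -0.451 in Mrpl18 (adjusted p = 0.00916), -0.421 in Mrpl51 (adjusted p = 0.0213), -0.404 in Mrpl42 (adjusted p = 0.00524), -0.332 in Mrps21 (adjusted p = 0.0459), -0.324 in Mrpl45 (adjusted p = 0.0271), -0.311 in Mrpl34 (adjusted p = 0.0376) and -0.292 in Mrpl50 (adjusted p = 0.0362). It was 0.201 in Mrps9 (adjusted p = 0.0273) and 0.326 in Mrpl19 (adjusted p = 0.0333). In Mrpl18, Mrpl51, Mrpl42, Mrps21 and Mrpl34 both fragments lowered the gene, by more with nApoE4 1-151. Mrpl45 rose with nApoE3 1-151, Mrpl50 fell with nApoE4 1-151, and Mrps9 and Mrpl19 fell with nApoE3 1-151, each with a value for the other fragment that did not pass the test. Leaving out each of the 11 libraries in turn kept Mrpl18 and Mrpl42. Mrpl51 was lost without ApoE4 replicate 2 or ApoE3 replicate 1. Mrpl34 was lost without ControlA replicate 1, ApoE4 replicate 1 or 2, ControlB replicate 1 or 2 or ApoE3 replicate 1, and Mrpl45 without ApoE4 replicate 2, ControlB replicate 1 or 2 or either ApoE3 library. Mrpl50 was lost without ApoE4 replicate 1 or 2 or any one library of ControlB or ApoE3, and Mrps21, Mrpl19 and Mrps9 were also lost without several libraries. Fragment and experiment cannot be told apart, and the untreated cells of the experiments differed in Mrpl18 by a log2 value of 1.01.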

How the results depend on the processing

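None of the 23 members called with nApoE4 1-151 reversed. With nApoE3 1-151, Mrps17, called higher at 0.115, turned to -0.016 with library totals alone, Mrpl20 and Mrps30, neither past the test, turned to -0.13 and -0.093 there, and Mrpl40 turned to -0.909 without ApoE3 replicate 2 and was 4.816 without ApoE3 replicate 1. With library totals alone, 30 members were lower with nApoE4 1-151, 49 lower and 8 higher with nApoE3 1-151, with medians of -0.151 for the large and -0.239 for the small subunit, and 4 had a higher value for nApoE4 1-151 in the difference, as also with no filter on low counts (4). Of all genes, 4993 of 14240 were lower with nApoE4 1-151 and 6783 of 14817 with nApoE3 1-151 when library totals alone were used. The nApoE3 1-151 median of the small subunit was -0.09 with at least 10 counts in every sample. Leaving out 1 replicate gave 15 to 28 lower and 4 to 13 higher with nApoE4 1-151, medians of -0.037 to 0.015 (large) and -0.116 to -0.088 (small) with nApoE3 1-151, and of -0.097 to 0.025 and -0.179 to -0.02 with nApoE4 1-151, 9 to 16 lower in ControlB, and 2 to 16 lower and 0 to 6 higher in the difference. Over the alternatives, 15 of 17 lower and 4 of 6 higher calls with nApoE4 1-151 passed in each, as did 20 of 29 and 7 of 16 with nApoE3 1-151 and 0 of 9 differences.

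Replicate numbers shared only a number, by the deviations of each sample's log2 CPM from the mean of its own group. Between same-numbered control and treated samples these deviations correlated at -0.109, -0.408 and -0.213 in the nApoE4 1-151 experiment and at -0.008 and -0.01 in the other. The levels themselves correlated at 0.9957 to 0.9991 between samples of a group. With them as a block, 16 members were lower and 4 higher with nApoE4 1-151, 27 and 18 with nApoE3 1-151, and 0 differed between the fragments in either direction. With 2 samples of nApoE3 1-151, its spread rests mostly on ControlB.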
